A study of Homo sapiens with 2 samples.

Results

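Glycolysis and the transcripts that low oxygen induces were examined in KG1, a cell line from a human acute myeloid leukaemia that keeps progenitor features, after an siRNA against T-bet. The 10 genes were 7 glycolytic enzymes (HK2, GPI, PFKL, ALDOA, PGK1, ENO1 and LDHA), the glucose transporter gene SLC2A1, and ADM and ANKRD37, which low oxygen induces. They were taken by gene symbol, at every probe set that the array's annotation assigns to them, which gave 25 of the 54675 probe sets and 10 of the 19775 genes named on the array. Of the 25 probe sets, 23 lay above the floor of 146 units (the higher of the 2 arrays' median signals) on at least 1 array and counted as measured. All 10 genes had at least 1 such probe set.

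The series holds 2 Affymetrix 3′ expression arrays, and it asks which genes depend on T-bet, the transcription factor of type 1 immune responses encoded by TBX21. Cells of 1 group, siRNA-Tbet, were electroporated with 1.98 µg of siRNA directed at T-bet. Those of the other, siRNAc, were given the same mass of a control siRNA. Both groups rested for 5 h and then received interleukin-18, a cytokine that induces interferon-γ, at 10 ng/ml for 12 h. There was no unstimulated group and no untransfected group, and the knockdown was transient in 1 cell line. Each group is 1 array, so no value below has a replicate error, no p-value was computed, and the number of arrays limits the precision. As a stand-in for technical noise, the disagreement among probe sets that read 1 gene was used (an SD on the log2 scale, called the spread between probe sets). It was 0.40 for the dimmest of 10 bins of signal and 0.12 for the brightest, and it leaves out variation between cultures and RNA preparations. The RNA came from whole cultures, so fewer cells of a type and less RNA per cell cannot be told apart.

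Signals ran up to 69760 units with siRNA-Tbet and 62672 with siRNAc. TBX21 itself read 1839 units with siRNA-Tbet against 3581 with siRNAc, so it was 48.7% lower. Of 7 progenitor and KG1 markers, 5 were measured at the chosen probe set, 4 higher and 1 lower, where 46.4% of all measured genes were higher. CD34 was among the 5, at 17130 and 15839 units. MYB differed most of the 5, with 26265 against 20627 units, or 27.3% higher. SPN was measured only at probe sets that can cross-hybridise. Of the 4 monocyte markers CSF1R alone was measured, at least 1.5-fold lower with 144 against 220 units, and CD14 read 4.54 and 6.34. All 6 T and natural killer cell markers were measured, 2 higher and 4 lower with a median log2 ratio of -0.14, and NCAM1 (550 against 862 units) was 1.57-fold lower. The summed signal of that list, most of it from CD3D and NKG7, was 29574 units with siRNA-Tbet and 28582 with siRNAc. Of the other lists, 2 B cell markers were measured, both lower, and 1 erythroid and 1 epithelial marker, both higher (HBB, 227 against 152 units, and KRT18, at least 1.61-fold with 235 against 113). Their part in the results below was not tested.

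Glycolysis splits glucose into pyruvate in the cytosol and yields ATP without oxygen. Lactate dehydrogenase then turns pyruvate into lactate, which restores the NAD+ that the pathway needs. When oxygen is scarce, the transcription factor HIF-1 escapes degradation and binds short DNA elements at many genes of this pathway, and it also induces signalling and feedback genes such as ADM. HIF-1 is a pair of HIF1A and ARNT, and in myeloid cells inflammatory signals can also engage it in normal oxygen.

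The 10 genes differed little between the 2 arrays. Each gene was read at its brightest probe set, leaving aside those that can cross-hybridise where it had another. At these, 6 were higher and 4 were lower with siRNA-Tbet, where 46.4% of all 12126 measured genes were higher. The median log2 ratio was 0.03, against -0.02 over all measured genes. The count of higher genes fell from 6 to 3 both after quantile normalization and after removal of the trend of the ratio on signal, where the medians were -0.07 and -0.04. No gene of the 10 differed at least 1.5-fold, a size that 4.84% of all measured genes reached in either direction. At a smaller size, at least 25% higher or 20% lower, 1 of the 10 was lower and 0 were higher, where 10.9% of all measured genes were lower and 7.68% higher by as much. The gene was ADM, the lowest of the 10 at a log2 ratio of -0.57. GPI was the highest of the 10, at 0.20.

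**Figure D1:**
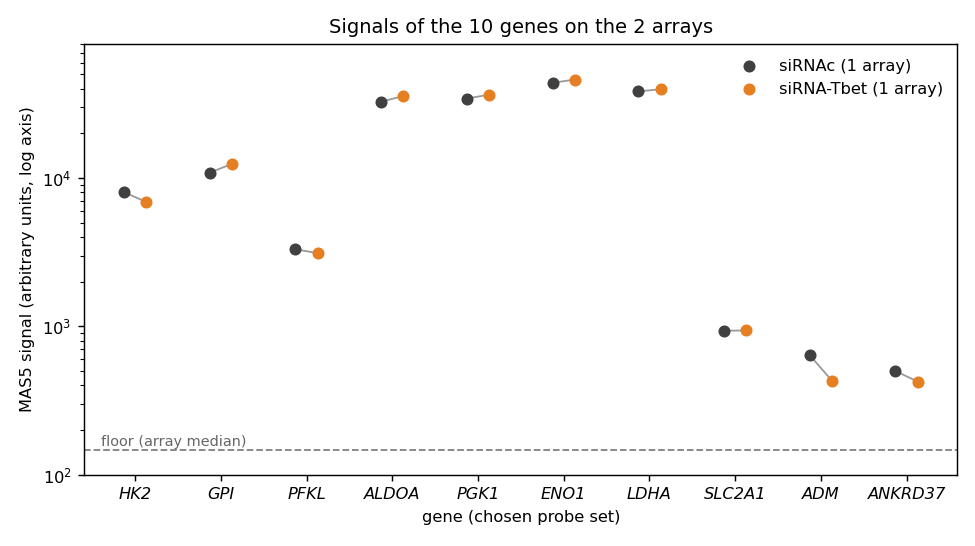
Signal of each of the 10 genes at its chosen probe set, in arbitrary MAS5 units on a log axis, with 1 point for the siRNAc array and 1 for the siRNA-Tbet array joined by a line; the dashed line is the floor of 146 units. Heights are not to be compared between genes, since each is read by its own probes; ADM has the steepest line, from 639 to 430 units, and the other lines are close to flat.

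Promoters of 4 of the genes are shown here because binding of HIF near a gene is what links the glycolytic and the hypoxia-induced members. HIF-1 reads a short core, ACGTG or GCGTG, on either strand. Both forms and their reverse complements, CACGT and CACGC, were searched for in the 250 bases before the start of each gene in RefSeq (GRCh38.p14). All 10 genes matched an entry. The ACGTG form was in 6 of them (HK2, GPI, ALDOA, PGK1, LDHA and ANKRD37), against 18.7% of the 27305 promoters in that table, and the GCGTG form in 5 (HK2, PFKL, PGK1, ENO1 and ADM), against 31.9%. Either form was in 9 of the 10, against 43.1% of all promoters. SLC2A1 held neither in this window. The 10 windows were 54.8% to 78% G and C, and the comparison with all promoters was not matched for that content. The E-box CACGTG, which other factors read as well, contains the ACGTG form on both strands and was present in LDHA and ANKRD37, against 6.49% of all promoters. The T-box core GGTGTGA or its reverse complement TCACACC, which T-bet's family reads, was in 0 of the 10 windows and in 2.72% of all promoters. These are matches of letters, and whether a factor binds there was not measured. LDHA, HK2 and PGK1 each hold 3 separate stretches of core. The windows of LDHA and HK2, but not PGK1, and of both hypoxia-induced genes are printed 5′ to 3′ on the gene's strand. Every match to either form is in capitals.
LDHA: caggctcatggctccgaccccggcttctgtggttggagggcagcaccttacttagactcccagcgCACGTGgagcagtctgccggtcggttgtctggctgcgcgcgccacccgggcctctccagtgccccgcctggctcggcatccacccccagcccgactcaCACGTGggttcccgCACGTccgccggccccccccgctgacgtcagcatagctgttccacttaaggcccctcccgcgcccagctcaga
HK2: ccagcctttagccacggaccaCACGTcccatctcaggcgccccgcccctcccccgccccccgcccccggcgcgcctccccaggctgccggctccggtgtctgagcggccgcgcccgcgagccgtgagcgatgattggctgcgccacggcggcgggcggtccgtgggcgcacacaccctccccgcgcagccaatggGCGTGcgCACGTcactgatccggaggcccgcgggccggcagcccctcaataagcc
ANKRD37: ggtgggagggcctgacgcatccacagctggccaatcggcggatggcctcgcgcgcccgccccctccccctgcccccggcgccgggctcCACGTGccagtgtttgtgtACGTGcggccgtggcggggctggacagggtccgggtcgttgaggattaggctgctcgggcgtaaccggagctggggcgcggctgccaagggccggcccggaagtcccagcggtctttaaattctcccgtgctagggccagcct
ADM: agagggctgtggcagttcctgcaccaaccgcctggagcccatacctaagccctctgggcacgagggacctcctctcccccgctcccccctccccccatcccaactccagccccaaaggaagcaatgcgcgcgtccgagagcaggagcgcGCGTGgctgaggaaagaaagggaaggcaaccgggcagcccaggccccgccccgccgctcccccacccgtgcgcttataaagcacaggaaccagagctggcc
The LDHA window is chr11:18394313-18394562 (plus strand), that of HK2 chr2:74833877-74834126 (plus strand), that of ANKRD37 chr4:185396591-185396840 (plus strand) and that of ADM chr11:10304823-10305072 (plus strand). In ANKRD37 the cores begin 162 and 143 bases before the start, the first of them as CACGTG, and the single core of ADM, GCGTG, begins 101 bases before it. Log2 ratios ran from -0.24 to 0.20 in the 6 genes whose window holds the ACGTG form. They ran from -0.57 to 0.09 in the 5 whose window holds the GCGTG form. HK2 and PGK1 hold both forms, so these ranges share genes and were bound to overlap. Whether the ratio depends on the form was not tested.

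Glucose enters these cells through transporters of the SLC2A family, and SLC2A1 encodes the widespread basal carrier GLUT1. It read 939 units with siRNA-Tbet against 934 with siRNAc, a log2 ratio of 0.01 where the spread between probe sets is 0.25. The second SLC2A1 probe set lay under the floor on both arrays, at 20.6 and 93.8 units, and gives no ratio. The transporter gene was thus level between the arrays to within the technical spread. Of 14 other genes of glucose and lactate transport, 5 were measured, 3 higher and 2 lower, where 46.4% of all measured genes were higher. None of the 5 was 25% higher or 20% lower, sizes that 7.68% and 10.9% of all measured genes reached. SLC2A3, the high-affinity carrier GLUT3, was chosen after its values were seen because it is the other main carrier of blood cells. It had 2144 and 2003 units, a log2 ratio of 0.10, and 0.24 and 0.35 at its dimmer probe sets. BSG, the chaperone of lactate carriers, had the largest difference of the list, with 4360 against 3592 units, or 21.4% higher with siRNA-Tbet. SLC2A6 had 4084 against 4599 units (log2 ratio -0.17) and SLC2A5, a fructose carrier, 795 against 852 (-0.10), with -0.22 at its other measured probe set.

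Hexokinase commits glucose to the cell by phosphorylating it, and HK2 is the isoform that hypoxia and growth signals induce. At its brightest probe set HK2 had 6896 units with siRNA-Tbet against 8023, a signal 14.0% lower (log2 ratio -0.22). That is 1.81 times the spread between probe sets at this signal, and the 200 measured genes nearest in signal had a median of -0.01. The other HK2 probe sets did not share that direction and size. The first of them had 712 against 723 units, a log2 ratio of -0.02, and the second had 861 against 574, which is 50.1% higher (log2 ratio 0.59). The direction of HK2 therefore rests on which probes are read. The brightest probe set, with the smallest technical spread, was lower, another was lower by much less than its spread, and 1 was higher. HK1, the constitutive isoform, was singled out after its values were seen; it had 6282 against 6068 units, a log2 ratio of 0.05.

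GPI, which turns glucose 6-phosphate into fructose 6-phosphate, had the highest ratio among the enzymes. Its single probe set had 12440 units with siRNA-Tbet against 10862, a signal 14.5% higher (log2 ratio 0.20). The nearest 200 genes in signal had a median of 0.02, and the ratio is 1.62 times the spread between probe sets. It kept its sign under each scaling tried, between 0.16 and 0.22.

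PFKL is the liver-type subunit of phosphofructokinase, the main control point of the pathway. One probe set had 3115 against 3311 units (log2 ratio -0.09), and the other, which can cross-hybridise, had 3723 against 3341 (0.16). The probe sets disagreed in direction, and both ratios were below the technical spread of 0.17. PFKFB3, which makes the activator fructose 2,6-bisphosphate, had 2700 against 2953 units, or 8.54% lower. Of 5 genes that make or degrade that activator, 4 were measured, 3 higher and 1 lower, where 46.4% of all measured genes were higher. PFKFB1 was at least 1.15-fold higher, with 168 against 144 units, the second under the floor. PFKFB4 had 265 against 246 units at the chosen probe set (log2 ratio 0.10), but its other probe set was at least 1.30-fold lower, with 28.4 against 190 units.

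The later steps of the pathway are made of very abundant enzymes, and their probe sets were among the brightest on both arrays. ALDOA, aldolase, which splits the phosphorylated sugar, had 35659 units with siRNA-Tbet and 32692 with siRNAc, or 9.07% higher. Its other probe sets had log2 ratios of 0.14 and -0.02, and all 3 can cross-hybridise. PGK1, phosphoglycerate kinase, which makes the first ATP, had 36457 against 34293 units, or 6.31% higher. Its next 3 probe sets by signal had log2 ratios of 0.13, -0.01 and 0.03. ENO1, enolase, had 46085 against 43779 units, or 5.27% higher, and 0.07 at the second probe set. LDHA, the muscle-type subunit of lactate dehydrogenase, had 39603 against 38360 units, or 3.24% higher, at its only probe set. These 4 enzymes were thus higher by between 3.24% and 9.07%, but after quantile normalization ALDOA, PGK1, ENO1 and LDHA had log2 ratios of 0.0081, -0.03, -0.05 and -0.08, and after removal of the trend 0.04, -0.0011, -0.03 and -0.05.

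Bright transcripts as a class were higher on the siRNA-Tbet array. In the top decile of measured genes by signal, 65.5% had a log2 ratio above 0, against 46.4% of all measured genes. Among the 200 genes nearest in signal the median log2 ratio was 0.09 for ALDOA, 0.10 for PGK1 and 0.12 for both ENO1 and LDHA. Against those medians ALDOA was higher by 0.03, and PGK1, ENO1 and LDHA were lower, at -0.01, -0.05 and -0.07. GPI was higher by 0.17 and HK2 lower, at -0.21, when set against their own neighbours. None of the differences from the neighbours for ALDOA, PGK1, ENO1 and LDHA reached the spread between probe sets of 0.12. Fluorescence can be compressed at such signals, which understates differences there.

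**Figure D2:**
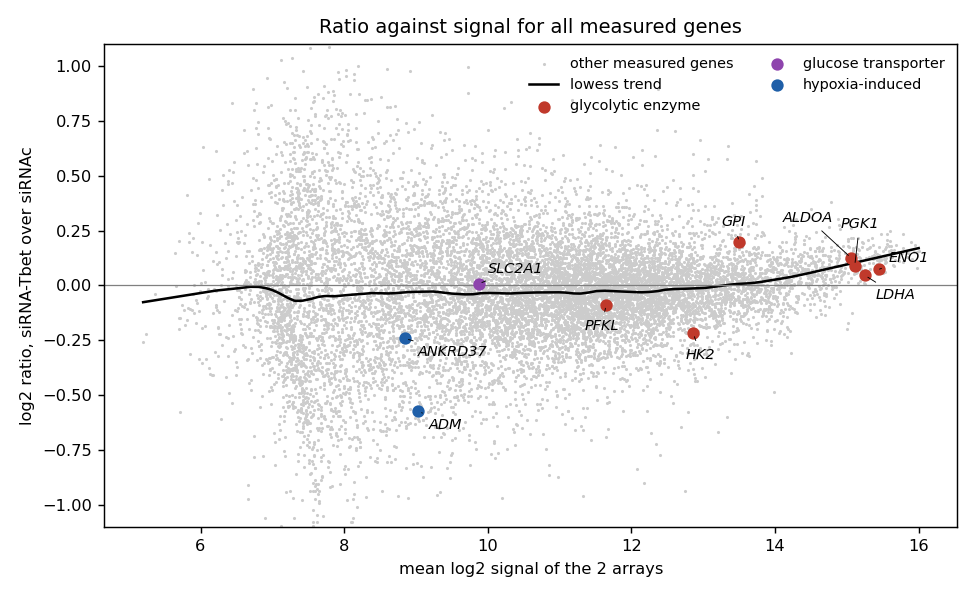
Log2 ratio of siRNA-Tbet over siRNAc against mean log2 signal, 1 grey point per measured gene (46 genes beyond 1.1 in either direction are outside the plotted range), with the 10 genes in colour by role and a lowess trend (span 0.1) as a black line. The trend turns upward at the bright end, where ALDOA, PGK1, ENO1 and LDHA lie close to it; ADM lies well below it, at -0.57, within the wide scatter of dim genes.

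The dim probe sets of the same enzymes scattered more widely than the bright ones. PGK1 had a probe set at 195 against 301 units, 35.3% lower (log2 ratio -0.63), and another at 284 against 278 units (0.03). ENO1 had a probe set at 298 against 209 units, 43.0% higher (log2 ratio 0.52), and another at 631 against 592 units (0.09). Of the 23 measured probe sets of the 10 genes, 15 were higher (65.2%) and 8 lower. Among all measured genes 46.4% were higher, and in the top decile by signal 65.5%. The same share over all measured probe sets was not counted. The 14 of the 23 with more than 1000 units on both arrays ranged from -0.22 to 0.20, 10 of them higher. The 9 with fewer on both ranged from -0.63 to 0.59, 5 of them higher. Of all 23, 1 was at least 1.5-fold higher and 1 at least 1.5-fold lower, where 2.87% and 3.23% of all measured probe sets with 1 gene reached that size. The higher one was the dim HK2 probe set at 0.59, and the lower one the dim PGK1 probe set at -0.63.

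**Figure D3:**
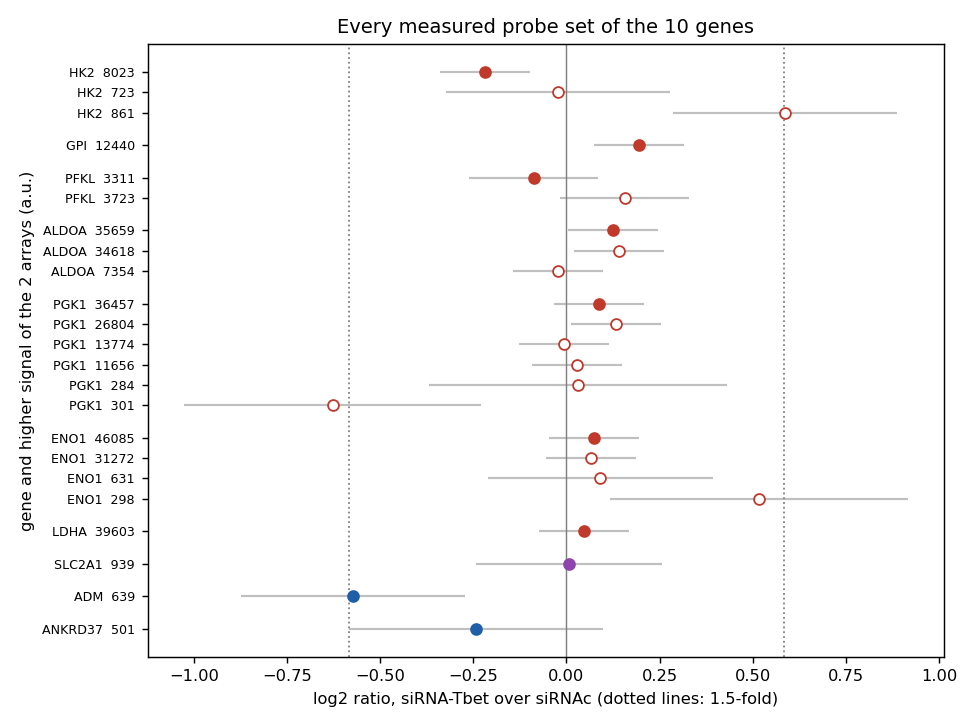
Log2 ratio of siRNA-Tbet over siRNAc at each of the 23 measured probe sets, labelled by gene and by the higher of the 2 signals, with filled points for the probe set chosen for the gene. Grey bars are the spread between probe sets of a gene at that signal (SD), not a replicate error, and dotted lines mark 1.5-fold; the bright probe sets gather between -0.22 and 0.20, and the dim probe sets of HK2, PGK1 and ENO1 lie farthest out together with ADM.

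ADM and ANKRD37, the members that take no part in glucose use, were both lower. ADM encodes adrenomedullin, a secreted vasodilator peptide that is a classical hypoxia-induced gene. Its only probe set had 430 units with siRNA-Tbet against 639, a signal 32.8% lower (log2 ratio -0.57, 1.49-fold). That difference was 1.90 times the spread between probe sets at that signal, and ADM lay at percentile 6.52 of the 1212 genes in its decile of signal. ANKRD37, an ankyrin-repeat protein gene that HIF-1 induces, had 424 against 501 units, or 15.4% lower (log2 ratio -0.24). This is 0.71 times the spread at its signal, and its second probe set was under the floor on both arrays, at 71.9 and 80.5 units. Both genes stayed lower under every scaling tried, ADM between -0.57 and -0.55 and ANKRD37 between -0.24 and -0.22. The floors tried could not move these ratios where they left the genes measured, since both signals lay above them. The receptor through which adrenomedullin acts is a pair of CALCRL with RAMP2 or RAMP3. RAMP2 lay under the floor on both arrays, at 123 units with siRNA-Tbet and 13.7 with siRNAc. CALCRL was lower at all 3 of its probe sets, with 723 against 764 units at the brightest (log2 ratio -0.08), -0.22 at the second and an at least 1.67-fold difference at the third. RAMP3 had 206 against 209 units (-0.02), while RAMP1, which pairs with CALCRL to form a receptor of a related peptide, had 1236 against 918 (0.43).

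Among the other hypoxia-induced genes more were higher than lower. Of 38 listed, 29 were measured, of which 18 were higher and 11 lower, with a median log2 ratio of 0.07. Of all measured genes 46.4% were higher. None of the 29 differed 1.5-fold, a size that 4.84% of all measured genes reached in either direction. At the smaller size, 4 (13.8%) were at least 25% higher and 2 (6.90%) at least 20% lower, where 7.68% and 10.9% of all measured genes were. CXCR4, the receptor of the chemokine CXCL12, had 3139 against 2140 units at its brightest probe set (log2 ratio 0.55), and 0.33 and 0.22 at the others. STC2, which encodes stanniocalcin, was at least 1.48-fold higher at low signal, with 216 against 96.0 units. TMEM45A was at least 1.35-fold lower, with 141 against 197 units. The other 3 genes past that size fall outside the naming rule and were picked after their values were seen. DDIT4, an inhibitor of mTOR signalling, had 4447 against 3392 units (log2 ratio 0.39) at its only probe set. CA12, a carbonic anhydrase, had 236 against 178 units (0.41), with 0.48 at another measured probe set. Its dimmest measured probe set was at least 1.02-fold higher, with 149 against 50.1 units, the latter under the floor. AK4, a mitochondrial adenylate kinase, had 4790 against 6114 units (-0.35), with 0.16, 0.08 and -0.31 at its others. A further 4 textbook HIF targets were also looked up after the values were seen. VEGFA, the vascular growth factor, had 2518 against 2772 units (-0.14), but its 3 other probe sets had 0.32, -0.18 and 0.79. The VEGFA probe sets at 0.32 and 0.79 can cross-hybridise. BNIP3, a mitophagy receptor, had 2893 against 3227 units (-0.16) and 0.34 at its second probe set. KDM3A, a histone demethylase, had 3285 against 2921 units (0.17), and HILPDA, a lipid droplet protein, 2792 against 2433 (0.20) and 0.42 at its second probe set. Such targets lay on both sides of 0, and the probe sets of AK4, VEGFA and BNIP3 disagreed in direction.

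The HIF system itself was read by 12 measured genes of 17, of which 9 were higher and 3 lower, with a median log2 ratio of 0.06. Of all measured genes 46.4% were higher. In the top decile by signal, where HIF1A and some others of the 12 lie, 65.5% were. HIF1A, the oxygen-regulated subunit, had 21468 units with siRNA-Tbet and 19583 with siRNAc, a log2 ratio of 0.13 at its only measured probe set. ARNT, its constant partner, had 865 against 982 units (-0.18), with log2 ratios of -0.06, 0.08, 0.11 and 0.28 at its dimmer probe sets. CITED2, which competes with HIF for its coactivators, had 2428 against 1809 units (0.42) and 0.33 at the second probe set. HIF1AN, the asparagine hydroxylase that blocks coactivator binding, was lower at all 3 of its probe sets, with 1810 against 2190 units (-0.27), -0.23 and -0.10. VHL, the ubiquitin ligase subunit that marks HIF for degradation, had 1125 against 1336 units (-0.25). HIF-2 (EPAS1) and HIF3A lay under the floor on both arrays. HIF is mainly controlled through protein stability, which these arrays do not measure.

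The glycolytic enzymes outside the set also differed little between the arrays. Of 22 listed, 13 were measured, 5 higher and 8 lower, where 46.4% of all measured genes were higher. The median of the 13 was -0.01. None of the 13 was 25% higher or 20% lower, sizes that 7.68% and 10.9% of all measured genes reached. LDHB, the heart-type subunit of lactate dehydrogenase, was the highest, with 36828 against 32695 units (log2 ratio 0.17) and 0.10 at its second probe set. Both LDHB probe sets can cross-hybridise. The 200 genes nearest in signal to ALDOA, which was about as bright, had a median of 0.09. TPI1, triosephosphate isomerase, had 23145 against 25612 units (-0.15), but 0.19 at its cross-hybridising probe set and -0.27 at the third. ADPGK, a glucokinase that uses ADP, had 5986 against 6504 units (-0.12), but 1856 against 1397 (0.41) at its second probe set. GAPDH, PKM and PGAM1 were looked up after the values were seen, because with ALDOA, PGK1 and ENO1 they complete the abundant later steps. GAPDH had 43650 against 40667 units (0.10) and 0.15 and 0.14 at its others, all of which can cross-hybridise. PKM, pyruvate kinase, had 25183 against 23596 units (0.09) and 0.17 at its second probe set, and PGAM1 28934 against 29071 (-0.01).

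At the exit of glycolysis, pyruvate enters mitochondria through a carrier and the pyruvate dehydrogenase complex, which PDK kinases switch off and PDP phosphatases switch on. Of 15 genes of this step, 12 were measured, of which 8 were higher and 4 lower, and the median was 0.03. Of all measured genes 46.4% were higher. PDP1 had 736 against 552 units (log2 ratio 0.41), and its second probe set was at least 1.55-fold higher. PC, pyruvate carboxylase, had 324 against 264 units (0.29). PDK1, the kinase that hypoxia induces, had 4490 against 4113 units (0.13), with 0.01 and 0.21 at the other probe sets.

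**Figure D4:**
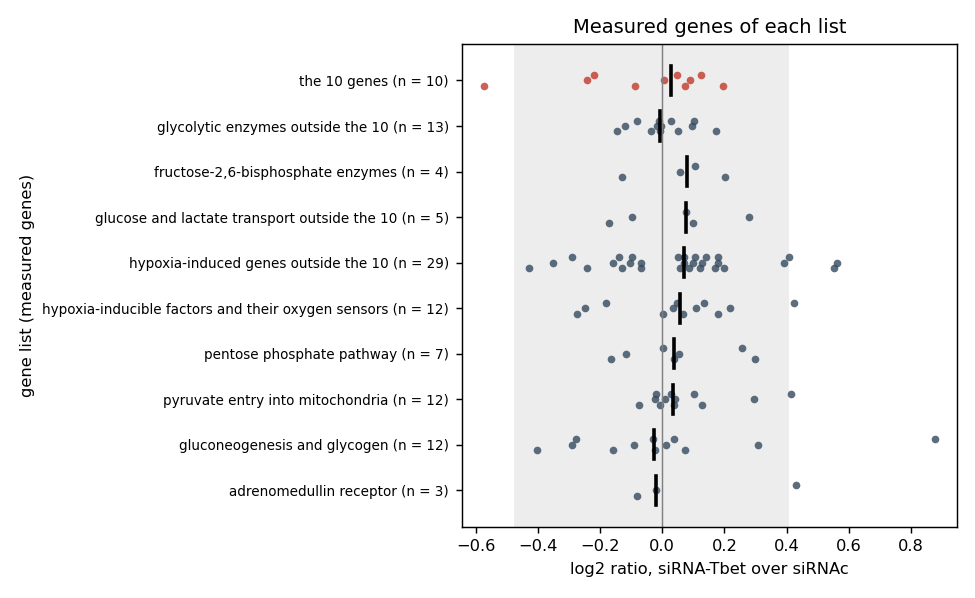
Log2 ratio of siRNA-Tbet over siRNAc for each measured gene of the 10 (red) and of 9 related lists (dark points), with the list's median as a black bar and its number of measured genes beside the name; the grey band holds the 5th to 95th percentile of all measured genes, from -0.47 to 0.40. ADM is the only one of the 10 outside the band, and the medians of all lists lie between -0.03 and 0.08; lists share some genes.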

How the data were processed

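Both arrays were read from the deposited table of linear signal intensities. Per the submitters' processing notes these were made with MAS5, which combines perfect-match and mismatch probes into 1 intensity per probe set; a version and a genome build are not given in the sources used here. The trimmed mean (2% off each end) of the deposited intensities was 1000 on both arrays, so they share a scale and were not normalized further. Mismatch subtraction makes low intensities noisy.

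The platform annotation gave the gene of each probe set, with symbols updated by Entrez number to RefSeq (GRCh38.p14). Of 54675 probe sets, 41097 had 1 gene, 1801 several and 11777 are unnamed here, and 41043 of the first matched RefSeq. The 62 control probe sets were left out. Signals under 146, the higher of both arrays' medians, were raised to that floor, and ratios resting on it are given as "at least". A gene was read at its brightest probe set without the suffix _x_at (which marks possible cross-hybridisation), or with it where it had no other, and counted as measured if that probe set passed the floor on at least 1 array. A common floor cannot turn a ratio's sign.

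With 1 array a group there was no test; 1.5-fold was the main size. The spread was taken from the difference between the ratios of a gene's 2 brightest measured probe sets (its SD over the square root of 2), over 6140 genes in 10 bins. At the smaller size a gene was at least 25% higher or 20% lower. The procedure was tested on simulated data. Genes named were the 10, TBX21, IFNG, HIF1A, ARNT and up to 3 with the largest absolute ratio in each of 9 lists, and exceptions are marked. The 10 genes and the lists were chosen with earlier results of these data known. IFNG had 31243 units with siRNA-Tbet and 35136 with siRNAc. Listed genes with no probe set assigned to them alone were not analysed here. Python 3.11.15, pandas 2.3.3 and statsmodels 0.14.6 were used.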

Additional observations from a re-analysis of the deposited data

How the results depend on the processing

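Direction counts moved with scaling and with the choice of probe set. Those of the 9 related lists were taken on the deposited scale only, and their dependence on scaling was not tested. Of the 10 genes, 6 had a log2 ratio above 0, and this number was 3 after quantile normalization, 3 with the lowess trend (span 0.3) removed, and 1 of 5 with only plain probe sets, where the median was -0.22 and GPI, PFKL, ALDOA, LDHA and SLC2A1 had no such probe set above the floor. No gene of the 10 reached 1.5-fold under any alternative, and at the smaller size (25% higher or 20% lower) 1 was called, and at 2-fold 0. The number of all genes past 1.5-fold, 587, was 3620 with a floor at the 25th percentile, 69 at the 75th and 1170 with none, and 2255 genes passed the smaller size and 64 passed 2-fold. ADM, ANKRD37, GPI, ALDOA, HK2 and SLC2A1 kept their sign under every alternative that gave them a value. PFKL and PGK1 changed sign under 3 and ENO1 and LDHA under 2. ADM, ANKRD37, GPI and SLC2A1 have 1 measured probe set each, above the floor on both arrays. Only a change of scale could therefore move their ratios. An HK2 probe set at 0.59 and an ALDOA probe set at -0.02, of the other sign, were read alone under no alternative. No paired analysis was possible because each group holds 1 array. Signal over background limits ADM, ANKRD37 and SLC2A1, which each rest on 1 measured probe set under 1000 units.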

Other observations

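Branches that leave glycolysis also held single genes apart from the rest. In the list of gluconeogenesis and glycogen, 12 of 15 genes were measured, 5 higher and 7 lower with siRNA-Tbet, with a median log2 ratio of -0.03. The share of higher genes was 46.4% over all measured genes. PYGB, the brain-type glycogen phosphorylase, which releases glucose 1-phosphate, had 1148 units with siRNA-Tbet and 625 with siRNAc (log2 ratio 0.88), the only one of the 93 distinct measured genes of the 9 lists (1.08%) past 1.5-fold, a size that 4.84% of all measured genes reached. It rests on 1 measured probe set. UGP2, which makes the sugar donor of glycogen synthesis, had 10506 against 8486 units (0.31), but -0.18 at its dimmer probe set. G6PC2, a glucose-6-phosphatase subunit, was at least 1.32-fold lower, with 124 against 194 units. GBE1, the glycogen branching enzyme, and G6PC3, the widespread glucose-6-phosphatase, were picked after their values were seen, with 3943 against 4784 units (-0.28) and 4100 against 5012 (-0.29, but 0.07 at the second probe set of G6PC3).

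The pentose phosphate pathway, which makes NADPH and ribose from glucose 6-phosphate, had 7 of 9 genes measured, 5 higher and 2 lower, with a median of 0.04. By comparison, 46.4% of all measured genes were higher. In the top decile by signal, where PGD, RPIA, TKT and TALDO1 lie, 65.5% were higher and the median was 0.04. PGLS, its lactonase, had 3773 against 3065 units (0.30), but -0.22 and -0.12 at its other measured probe sets. RPE, an epimerase of the sugar-shuffling branch, was lower at all 3 of its measured probe sets, at -0.17, -0.11 and -0.19, with 4192 against 4702 units at the brightest. H6PD, the enzyme of the same first step in the endoplasmic reticulum, had 680 against 569 units (0.26), 0.58 at its second probe set and an at least 1.31-fold lower signal at the third.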
